A study of Mus musculus with 6 samples.

Results

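The regions described here are 2503 control-only 5hmC peaks that lie beside injury peaks: stretches of the mouse genome listed as enriched for 5-hydroxymethylcytosine (5hmC) in control brain, not listed in ischemic brain, but with a peak of the ischemic brain at most 10 kb away. They were chosen by position from the deposited lists, as control peaks on chromosomes 1 to 19 that no injury peak overlapped by 1 bp or more and whose nearest edge lay within 10 kb of an injury peak's edge. Of the 20555 control peaks on these chromosomes, 3834 (18.7%) overlapped no injury peak, and the 2503 adjacent ones made up 12.2% of the control list (95% interval 11.7 to 12.6%). They are 65.3% (63.8 to 66.8%) of the control-only peaks, and the remaining 1331 control-only peaks had no injury peak within 10 kb. Both lists together hold 73957 peaks on all chromosomes. With only the 20555 best-scoring injury peaks, the length of the control list, 3860 control peaks would meet the rule in place of 2503. Since the rule itself used overlap and distance, these counts describe the choice and are not evidence of a difference between the groups.

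The study compared brain tissue of C57BL/6 mice with ischemic injury (labelled I/R and IR) with matched control brain tissue (CTL), 3 mice per group, with no further allele or agent, age, sex, brain region or time after injury named in the labels. 5hmC was mapped by hMe-Seal, in which a modified sugar is attached to each 5hmC base so that fragments carrying it can be captured and sequenced. The deposited data are 1 list of peaks per group, with positions on the mm9 build and a score from the peak caller, and no values for single mice. The depth of sequencing behind either list is unknown, so whether a region missing from the injury list had less 5hmC, or only failed to reach the caller's threshold, cannot be told from these lists. Brain tissue is a mixture of cells, and a change in the 5hmC of a cell type and a change in the number of such cells cannot be told apart.

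5hmC is made from 5-methylcytosine by the TET enzymes, which oxidise the methyl group. It can be an intermediate on the way back to unmodified cytosine or a lasting mark. Neurons hold much of it, in the bodies of active genes and at enhancers, where it often spreads over broad stretches that a peak caller may report as several peaks in a row. For such stretches the edges of a peak, and the breaks between peaks, are part of what a list records. No sequence or gene is given for the regions below because neither a genome nor an annotation of the mm9 build was used here.

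No test of control against injury was possible with 1 list per group, and no p-value is given. The 95% intervals are exact binomial intervals for shares and binomial order-statistic intervals for medians. They cover counting error only and treat neighbouring peaks as independent, which they are not. The score is the authors' value for each peak, taken as the usual score of the caller, and scores of the control and the injury list stand on separate scales because the depth of each is unknown.

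The adjacent control-only peaks were mostly weak and narrow for the control list, with a small group of strong and broad ones. Their scores ran from 50.0, the lowest score in the list, to 486, with a median of 64.8 (64.0 to 65.8) and quartiles of 56.2 and 81.8. A score under 60, close to the lower limit of the list, was found for 952 of them (38.0%, 36.1 to 40.0%). A score of 100 or more was found for 347 (13.9%, 12.5 to 15.3%). Their widths ran from 753 to 11856 bp, with a median of 2192 bp (2150 to 2226) and quartiles of 1736 and 2734 bp, and 39 of the 2503 were 5 kb or wider. Width rose with score among them (Spearman rho 0.32 over the 2503 peaks, which share 1 list and its depth), with medians of 1914 bp for the 626 lowest scores and 2623 bp for the 625 highest.

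The strongest of these peaks showed a spread of local arrangements, and each is given here with its neighbours. Chromosome 7 held the one with the highest score, 486 (rank 415 among the control peaks), which was 8.01 kb wide (20106744 to 20114756). It lay in a row of control peaks, 293 bp after a control-only peak of 3376 bp (20103075 to 20106450, score 232) and 371 bp before a control peak of 8394 bp (20115128 to 20123521, score 1054 on the control scale). That last peak was matched almost edge for edge by an injury peak (20115212 to 20123584, injury-list score 867), which started 455 bp from the control-only peak. The nearest injury peak on the other side ended 4.13 kb away (20099300 to 20102610). The injury list thus had peaks on both sides of this stretch and none on the 2 control-only peaks between them.

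Second came a narrow peak on chromosome 4 (99714303 to 99716186, 1.88 kb, score 449) in an otherwise empty stretch. A single injury peak of 1.58 kb lay 876 bp after it (99717063 to 99718638, injury-list score 87.6, rank 26546 of the injury list), and that injury peak overlapped no control peak. The next injury peak on the other side was 94.99 kb away and the next control peak 354.6 kb away. Here each list had 1 peak of similar width and neither overlapped the other.

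The third, with a score of 440, was also the widest of all 2503, at 11.9 kb on chromosome 2 (25291577 to 25303432). Another control-only peak of 5443 bp (25285548 to 25290990, score 73.9) lay 586 bp before it, so that the control list marked a nearly continuous stretch of 5hmC. The nearest injury peaks were 7.38 kb after it (25310811 to 25312493) and 7.67 kb before it (25282584 to 25283911). Its nearest injury peak was thus farther away than the nearest ones of the chromosome 7 and chromosome 4 peaks, at 455 and 876 bp.

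The next in score lay on chromosomes 6 and 9. The chromosome 6 peak, 9.58 kb wide with a score of 406 (83137440 to 83147023), was followed after 271 bp by a control-only peak of 4228 bp (83147295 to 83151522, score 191), with injury peaks 2.37 kb before it (83131840 to 83135065) and 4.96 kb after it (83151982 to 83153316). The chromosome 9 peak, 3.01 kb wide with a score of 394 (21784030 to 21787037), stood alone between regions found in both lists. An injury peak of 5.01 kb lay 1.22 kb before it (21777800 to 21782806, overlapping a control peak) and another of 4249 bp lay 6.80 kb after it (21793835 to 21798083, also overlapping one). Of the 5 strongest, 3 thus lay directly beside another control-only peak, the chromosome 9 peak lay between shared regions, and the chromosome 4 peak lay apart from all other control peaks.

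The remaining peak among the 3 widest was 11.8 kb long on chromosome 11 (117013710 to 117025540, score 377). An injury peak of 8.92 kb started 821 bp after its end (117026362 to 117035277, injury-list score 242), while the injury list had nothing within 10 kb on the other side, where the nearest peak was 14.8 kb away. Inside that injury peak lay a control peak of 2626 bp with a score of 50.5, close to the lower limit. In this region the control list had its broad peak on 1 side and the injury list had its broad peak on the other.

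**Figure D1:**
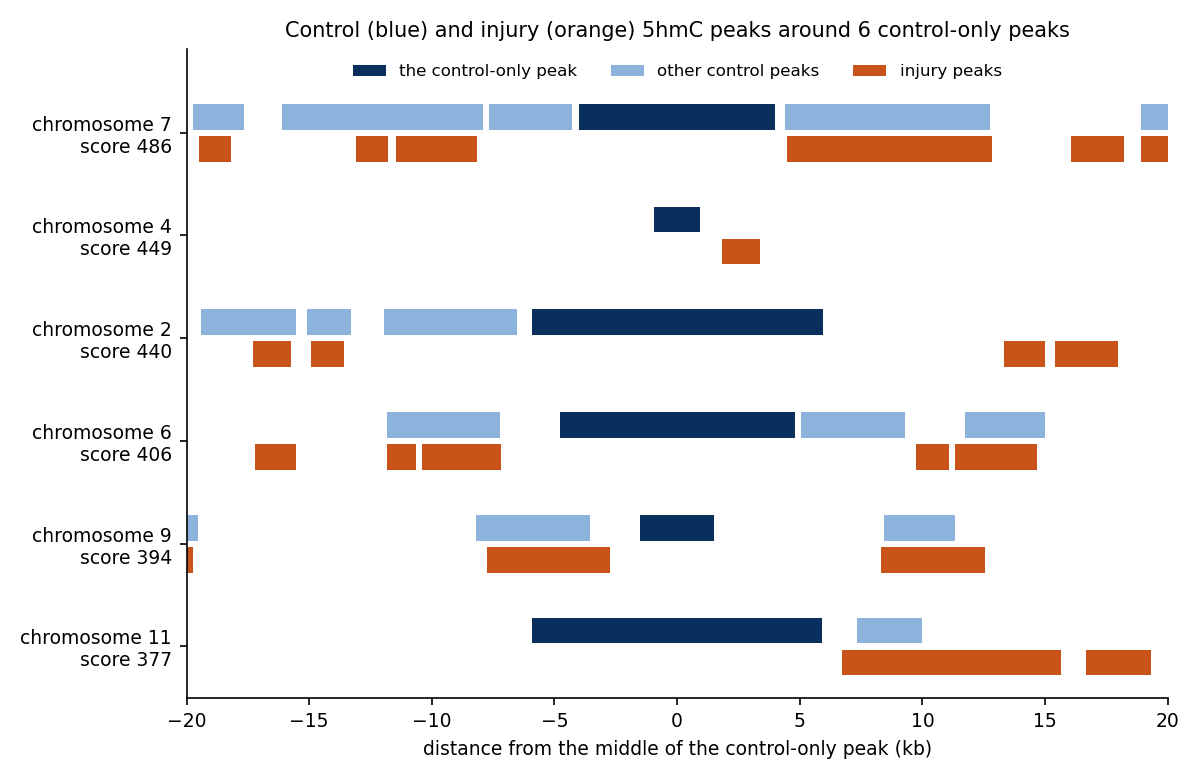
Control peaks (blue, the control-only peak dark) and injury peaks (orange) within 20 kb of the middle of 6 control-only peaks, with distance in kb on the horizontal axis and 1 region per row, labelled by its chromosome and control-list score. The chromosome 4 peak has a single injury peak as its neighbour, while the peaks on chromosomes 7, 2 and 6 each adjoin another control-only peak.

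The scores of the adjacent peaks lay near those of the control-only peaks farther away, and their widths lay between these and the shared peaks. Median scores were 62.8 (61.8 to 63.9) for the 1331 farther control-only peaks, 64.8 for the adjacent ones and 85.0 (84.2 to 85.9) for the 16721 control peaks that overlapped an injury peak. The share with a score of 100 or more was 13.1% (11.4 to 15.1%) in the farther and 39.2% (38.5 to 40.0%) in the shared peaks, against 13.9% in the adjacent ones. Median widths were 1909 bp (1860 to 1955) in the farther, 2192 bp in the adjacent and 2807 bp (2785 to 2829) in the shared peaks. Since a wide peak has more room to meet another, width is tied to the rule that sorted the peaks, and these differences were not tested.

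**Figure D2:**
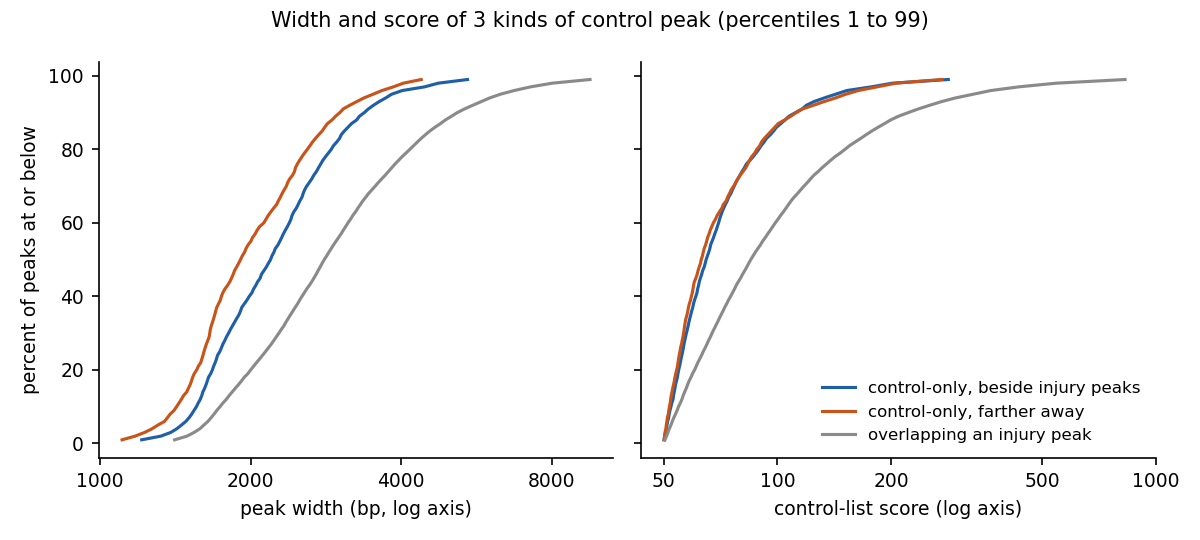
Percent of peaks at or below each width (left, bp) and each control-list score (right), both on log axes, for the 2503 adjacent control-only peaks, the 1331 farther ones and the 16721 that overlap an injury peak. The score curves of the adjacent and the farther peaks run close together, with medians of 64.8 and 62.8, while the width curve of the adjacent peaks lies between the others.

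The control list was then divided by score into 10 classes of equal size, and the order of the median widths was the same in each. In the lowest class (scores 50.0 to 53.9) median widths were 1743 bp in the farther, 1894 bp in the adjacent and 2123 bp in the shared peaks. In the highest class (scores from 201) they were 2123 bp, 3008 bp and 4662 bp. The adjacent peaks took 20.04% (18.3 to 21.8%) of the control peaks in the lowest class and 2.48% (1.85 to 3.25%) in the highest, 412 and 51 peaks. The share of the farther peaks fell over the same classes from 12.5% (11.2 to 14.1%) to 1.46% (0.99 to 2.08%). The split between adjacent and farther moved little: the adjacent ones were between 60.8% and 71.2% of the control-only peaks in each class, with no steady order over the classes.

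**Figure D3:**
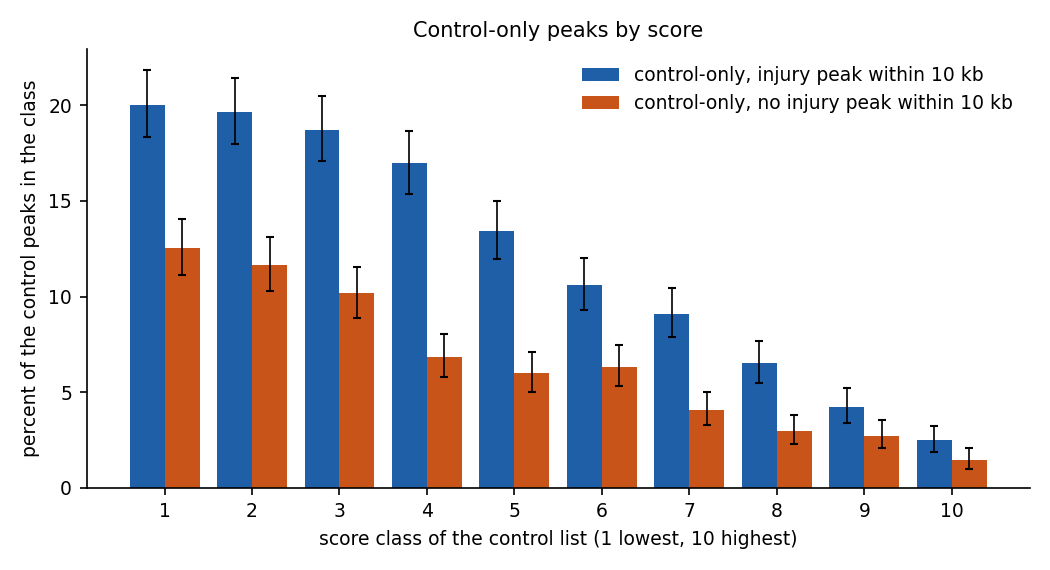
Percent of the control peaks in each class by score (2055 or 2056 peaks each, 1 lowest and 10 highest) that overlap no injury peak and have one within 10 kb (blue) or none within 10 kb (orange), with exact binomial 95% intervals. Both kinds become rarer with score, the adjacent ones from 20.04% to 2.48%.

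The gap from a control-only peak to its nearest injury peak was used by the rule, which left out gaps above 10 kb. Within that limit it was more often short than long. It ran from 1 to 9999 bp with a median of 2270 bp (2149 to 2433) and quartiles of 877 and 4665 bp. A gap of at most 1 kb was found for 690 peaks (27.6%, 25.8 to 29.4%), one of at most 2 kb for 1139 (45.5%) and one of at most 5 kb for 1934 (77.3%). The number fell from 690 in the first kilobase to 449 in the second and 80 between 9 and 10 kb. For 1234 peaks (49.3%, 47.3 to 51.3%) the gap was smaller than the peak's own width. The nearest injury peak lay at the lower coordinate for 1282 peaks (51.2%, 49.2 to 53.2%), so the sides were taken about equally. The gap was nearly unrelated to the peak's score (rho -0.04).

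Gaps were measured in the same way around the control peaks that do overlap an injury peak, by taking the nearest injury peak that does not overlap them. Of these 16721 peaks, 14650 (87.6%) had such an injury peak within 10 kb. The median gap among them was 1662 bp (1622 to 1710), and 35.7% (34.9 to 36.4%) of the gaps were at most 1 kb, against 27.6% among the control-only peaks. Gaps of at most 100 bp were rare in both, 2.72% (2.12 to 3.43%) of the control-only and 3.08% (2.80 to 3.37%) of the shared peaks. Short gaps to an injury peak were thus found beside both kinds of control peak, and the difference between them was not tested.

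**Figure D4:**
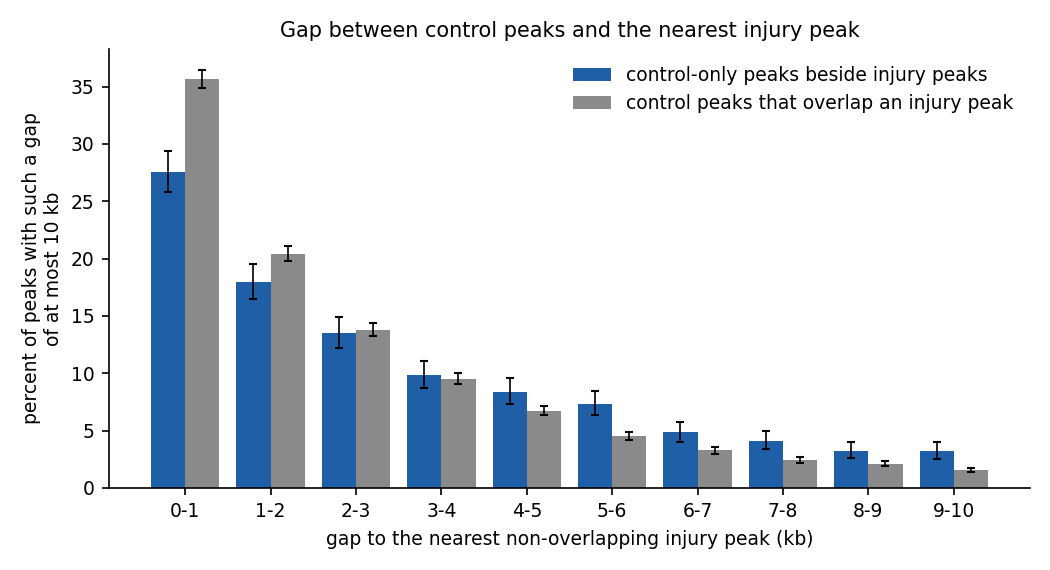
Percent of peaks by the gap to the nearest non-overlapping injury peak, in steps of 1 kb up to 10 kb, for the 2503 adjacent control-only peaks (blue) and 14650 control peaks that overlap an injury peak and have another within 10 kb (grey), with exact binomial 95% intervals. Both fall with distance, and the first kilobase holds 27.6% of the control-only and 35.7% of the shared peaks.

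The closest of these neighbours all but touched. On chromosome 8 a control-only peak of 1.65 kb (114375889 to 114377535, score 56.8) began 1 bp after the end of an injury peak of 1.72 kb (114374166 to 114375887, injury-list score 100.3). On chromosome 16 a peak of 1.84 kb (95561380 to 95563217, score 85.7) ended 2 bp before an injury peak of 1.75 kb (95563220 to 95564972, score 52.9). On chromosome 12 a peak of 2.32 kb (88317912 to 88320232, score 51.7) began 2 bp after an injury peak of 2.05 kb (88315862 to 88317909, score 136.3) and ended 607 bp before another (88320840 to 88322514). None of the 4 injury peaks just named overlapped a control peak. At gaps of 1 and 2 bp these control peaks lay at the very border between control-only and shared.

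The limit of 10 kb is a working border. The 3 farthest peaks lay on chromosome 3 (129772657 to 129774858, score 64.7, gap 9999 bp), chromosome 11 (3773877 to 3776836, score 63.8, gap 9981 bp) and chromosome 7 (80749283 to 80752002, score 70.7, gap 9979 bp). Just outside it lay control-only peaks on chromosome 19 (7327274 to 7329150, score 97.6, gap 10026 bp) and chromosome 2 (91936416 to 91939723, score 50.6, gap 10031 bp). The gaps just inside and just outside differed by less than 100 bp.

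The injury peaks next to the control-only peaks were ordinary members of their own list. The nearest injury peaks of the 2503 regions were 2383 distinct peaks, since some served 2 or more control-only peaks. Their median width was 1978 bp (1944 to 2025), against 2056 bp in the injury list on these chromosomes. Their median injury-list score was 86.0 (84.2 to 88.9) against 87.3, and their median percentile in that list was 48.9. The score of a control-only peak bore almost no relation to that of its nearest injury peak (rho 0.02), and neither did the widths (rho 0.05), both over 2503 pairs in which some injury peaks occur more than 1 time. The injury peak was the wider of the pair in 1086 cases (43.4%, 41.4 to 45.4%).

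The regions fell into 2 kinds by what the nearest injury peak was. For 1482 (59.2%, 57.2 to 61.1%) it was itself without a control counterpart, so that a control-only and an injury-only peak lay side by side. Injury-only peaks were also the larger part of the whole injury list, 35115 of 53341 peaks on these chromosomes, so this majority is not particular to these regions. For the other 1021 (40.8%, 38.9 to 42.7%) the nearest injury peak overlapped a different control peak, so that the control-only peak lay at the flank of a shared region. Gaps were alike, with medians of 2280 bp (2110 to 2484) and 2270 bp (2112 to 2509), and so were the widths of the control-only peaks, 2190 and 2197 bp. Their scores were 63.4 (62.3 to 64.6) beside an injury-only peak and 66.9 (65.4 to 68.9) beside a shared one. The injury peaks differed more: median widths were 2420 bp for shared and 1809 bp for injury-only ones, and median scores 122.5 (117.2 to 129.4) and 74.1 (71.9 to 76.1). A control-only peak was narrower than its shared neighbour in 55.5% (52.4 to 58.6%) of cases and narrower than its injury-only neighbour in 35.0% (32.6 to 37.5%). A wide injury peak has more room to overlap a control peak, so these widths are tied to how the 2 kinds were defined. Widths and scores of the 2 kinds over the whole injury list are not given here, so the contrast may not be particular to these neighbours. The share next to an injury-only peak was 63.6% among the 626 lowest-scoring and 52.3% among the 625 highest-scoring control-only peaks. Which kind was the larger turned with the injury list. With its 20555 best-scoring peaks alone, 3860 control peaks met the rule, and 36.3% (34.8 to 37.9%) of them were nearest to an injury-only peak. These 3860 are a different set, since control peaks whose overlapping injury peaks were all cut joined the control-only ones. The injury-only share of the shortened list is not given here, so the turn cannot be set against it.

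Injury peaks stood on both sides of 1115 control-only peaks (44.5%, 42.6 to 46.5%), each within 10 kb. Among the 14650 shared control peaks with a non-overlapping injury peak within 10 kb, such peaks stood on both sides of 62.8% (62.1 to 63.6%), a difference that was not tested. The space between the flanking injury peaks had a median of 9373 bp (9049 to 9672), and the control-only peak took more than 50% of it in 137 of the 1115 (12.3%). Scores were alike with injury peaks on both sides and on 1 side, with medians of 65.0 and 64.6. The share with injury peaks on both sides was 27.8% (26.4 to 29.2%) with the shortened injury list. Gaps of at most 1 kb on both sides were found at 54 peaks (2.16%, 1.62 to 2.81%). There the injury list left a hole that reached at most 1 kb beyond the control peak on each side.

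The tightest such holes were picked after their values were seen. On chromosome 2 a control-only peak of 3.03 kb (4423523 to 4426553, score 82.8) had injury peaks 76 bp before it (4421861 to 4423446) and 162 bp after it (4426716 to 4428504). On chromosome 17 a peak of 3.91 kb (47337584 to 47341497, score 121.2) had them 39 bp before (47334026 to 47337544, injury-list score 190) and 164 bp after (47341662 to 47343899, score 50.2), and both of these overlapped other control peaks. On chromosome 11 a peak of 2.94 kb (117803400 to 117806341, score 95.4) had them 71 bp before (117801548 to 117803328) and 218 bp after (117806560 to 117808797), and neither of these overlapped a control peak. In these 3 regions 5hmC peaks of the injury list stopped and resumed around the control peak.

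Most of the control-only peaks lay in company. Within 10 kb 899 (35.9%) had exactly 1 injury peak, 747 had 2, 486 had 3 and 371 (14.8%, 13.5 to 16.3%) had 4 or more. The maximum of 7 was reached by 6 peaks. The strongest of those were on chromosome 11 (118947905 to 118949978, score 136.1, nearest injury peak 2992 bp away), again the chromosome 11 peak with the gaps of 71 and 218 bp, and on chromosome 10 (94765165 to 94770980, 5.82 kb wide, score 92.9, nearest injury peak 369 bp away). At least 1 injury-only peak lay within 10 kb of 1913 control-only peaks (76.4%, 74.7 to 78.1%) and of 78.9% (78.2 to 79.5%) of the 14650 shared control peaks that, like all the adjacent ones by the rule, had a non-overlapping injury peak within 10 kb.

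Another control peak lay within 10 kb of 1660 of the adjacent control-only peaks (66.3%, 64.4 to 68.2%). The share was 99.8% for the 1021 whose nearest injury peak overlapped another control peak, which all but fixes it. For the other 1482 it was 43.3%. Over all 16721 shared control peaks, with or without a further injury peak within 10 kb, it was 67.3% (66.6 to 68.0%). Among the control-only peaks farther from injury peaks it was 11.3% (9.69 to 13.2%). The nearest other control peak within that distance was a shared one for 1347 (53.8%) and a further adjacent control-only peak for 277 (11.1%). The wider surroundings ran in the same order. Within 500 kb on each side the adjacent peaks had a median of 24 other control and 62 injury peaks, the shared peaks 28 and 71, and the farther peaks 9 and 27. The adjacent peaks thus lay in surroundings nearly as rich in 5hmC peaks as the shared ones. Nearness to an injury peak is what chose them, and rich surroundings give more injury peaks to be near to, so this order is tied to the rule.

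When the nearest peak of either list on each side was read out, the commonest arrangement was an injury-only peak on 1 side and nothing within 10 kb on the other, at 764 regions (30.5%, 28.7 to 32.4%). An injury-only peak on 1 side and a shared region on the other followed with 467 (18.7%, 17.1 to 20.2%). A shared region on 1 side and nothing on the other was found at 405 (16.2%), injury-only peaks on both sides at 344 (13.7%) and shared regions on both sides at 200 (7.99%). The remaining regions, 323 in all, had another control-only peak as the first neighbour on at least 1 side.

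Peaks of both lists were then joined into neighbourhoods wherever consecutive gaps were at most 10 kb. The 2503 control-only peaks fell into 2054 of 19095 neighbourhoods, with a median length of 22.6 kb, 2 control peaks and 3 injury peaks. Of the 2503, 1799 (71.9%, 70.1 to 73.6%) were in a neighbourhood that also held a shared control peak, and 704 (28.1%, 26.4 to 29.9%) were in one where no control peak was shared. In 337 neighbourhoods there were 2 or more of them. The most, 7, were on chromosome 12 in 269.2 kb (109433563 to 109702726), together with 20 shared control peaks and 34 injury peaks. Next came 6 on chromosome 10 in 344.1 kb (79579246 to 79923333), with 33 shared control and 52 injury peaks, and 5 on chromosome 11 in 319.7 kb (113453699 to 113773439), with 28 and 57. In the longest neighbourhood, 677.2 kb on chromosome 2 (165876257 to 166553425), 3 of 66 control peaks were control-only, beside 123 injury peaks.

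At the simplest end were 325 neighbourhoods (13.0% of the 2503 regions, 11.7 to 14.4%) made of 1 control-only and 1 injury-only peak and nothing else. These peaks were weak in both lists, with a median control-list score of 62.5 (60.7 to 64.7) and a median injury-list score of 67.3 (65.0 to 70.6). Median widths were 2104 bp for the control-only and 1715 bp for the injury-only peak, the median gap was 3598 bp (3136 to 4191) and the median distance between midpoints 5777 bp. A gap of at most 1 kb was found in 52 of the 325 (16.0%, 12.2 to 20.4%), against 27.6% over all the adjacent peaks. A pair on its own has only 1 injury peak within 10 kb, while elsewhere the gap can be the shortest of several. This difference is thus tied to how the pairs were defined.

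The pairs strongest by control-list score, a choice made after their values were seen, were unequal in rank. The injury-list score played no part in the choice, so a high control rank beside a lower injury rank is tied to it. The chromosome 4 pair with control score 449 has been given above. On chromosome 9 a control peak of 1.90 kb (45063855 to 45065756, score 345) lay 1.39 kb after an injury peak of 2.15 kb (45060323 to 45062468, injury-list score 62.5). On chromosome 17 a control peak of 5.26 kb (37078355 to 37083616, score 288) lay 2.12 kb before an injury peak of 1.34 kb (37085741 to 37087079, score 50.2). On chromosome 1 a control peak of 1.75 kb (71654932 to 71656683, score 256) lay 1.38 kb before an injury peak of 1.57 kb (71658060 to 71659629, score 95.01). On chromosome 5 a control peak of 1.82 kb (38211829 to 38213645, score 189) lay 3.28 kb after an injury peak of 1.57 kb (38206982 to 38208548, score 77.6). In these 5 pairs the control-list peak ranked between 479 and 2345 of its list, and the injury-list peak between 23756 and 53126 of its own.

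The adjacent control-only peaks were spread over all 19 autosomes. Their share of the control peaks ran from 10.4% on chromosome 8 (142 of 1366, 8.83 to 12.1%) to 14.3% on chromosome 10 (152 of 1062, 12.3 to 16.6%), around 12.2% for all. The interval of chromosome 8 ended just below 12.2% and that of chromosome 10 began just above it, and those of the other 17 autosomes took it in; these are the extremes of 19 values. By number per Mb they ran from 0.57 on chromosome 3 (85 peaks) to 1.99 on chromosome 11 (236 peaks). As a share of the control-only peaks alone, the range was wider, from 50.0% on chromosome 13 (72 of 144, 41.6 to 58.4%) to 75.0% on chromosome 15 (135 of 180, 68.0 to 81.1%), with chromosome 17 next (162 of 217, 74.7%). That share was higher where injury peaks were denser (Spearman rho 0.65 over 19 chromosomes), while the share of all control peaks was not (rho -0.19). Denser injury peaks leave fewer control-only peaks without one within 10 kb, so the first of these relations is tied to the rule. Median scores ran from 61.0 to 68.4 and median widths from 1982 to 2292 bp between chromosomes, which is small beside the quartiles of all the adjacent peaks.

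**Figure D5:**
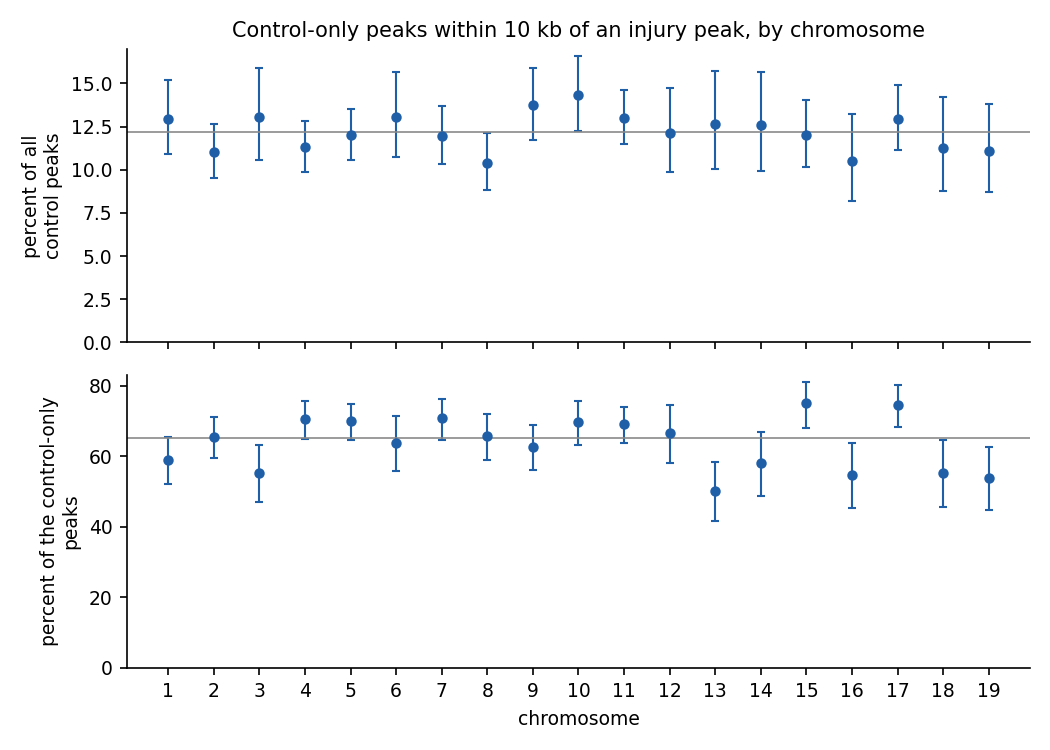
Adjacent control-only peaks on each autosome as a percent of all control peaks (top) and of the control-only peaks (bottom), with exact binomial 95% intervals and a grey line at the value for all 19 chromosomes, 12.2% and 65.3%. The upper values stay between 10.4% and 14.3%, and the lower ones run from 50.0% on chromosome 13 to 75.0% on chromosome 15.

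On a finer scale the peaks lay in 924 windows of 1 Mb, of which 344 held a single one and 141 held 5 or more. The most, 14, were on chromosome 11 from 116 to 117 Mb, among 87 control and 150 injury peaks, or 16.1% of the control peaks there. Their scores ran from 50.6 to 138.6, their gaps had a median of 3667 bp, and 6 of the 14 had injury peaks on both sides. Windows with 13 each followed on chromosome 5 from 136 to 137 Mb, where they were 30.2% of 43 control peaks beside 72 injury peaks, and on chromosome 4 from 135 to 136 Mb, where they were 26.5% of 49 control peaks beside 92 injury peaks. On chromosome 5 the scores had a median of 79.4 and reached 204, and 9 of the 13 were nearest to an injury-only peak. On chromosome 4 the scores had a median of 68.4 and reached 101.0, and 8 of the 13 had an injury peak on both sides. These windows were picked for their counts, and their values are given as a description.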

How the data were processed

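The samples were brain DNA of 3 control and 3 injured mice. Per the submitters' processing notes, CASAVA 1.4, Bowtie 0.12.9, MACS 1.4.2 and build mm9 were used, with no settings named. For pooling of mice, an input control and read numbers, the sources used here give nothing. The authors deposited 1 peak list per group, whose score, at least 50 in both, was taken as -10 times the base-10 logarithm of the caller's p-value. Peak number and score both grow with depth. Lists were tied to groups by the names in the sample titles.

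Overlaps and edge-to-edge gaps were computed with Python 3.11.15, numpy 2.4.6, pandas 2.3.3 and scipy 1.17.1, and figures with matplotlib 3.10.9. Positions count from 1, and a gap is the number of bases between 2 peaks. The functions were tested on simulated peaks (100% of 20555 recovered) and on chromosome 19 against a direct comparison (0 mismatches). The gene table at hand is of another build (GRCm38) and was not used. The members, comparisons and named regions were chosen with earlier results of these data known. Named were the 5 highest scores, the 3 widest, closest and farthest, the 3 with most injury peaks nearby, those at the 10 kb limit and the 3 fullest windows. Equal values were ordered by score. Alternatives were other distance limits (5 and 20 kb), another overlap rule, score thresholds, merging, and a shorter injury list.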

Additional observations from a re-analysis of the deposited data

How the results depend on the processing

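The peak caller's threshold and the unknown depth limit every value here, since each class depends on which weak peaks the injury list holds. With a limit of 5 kb, 9.41% of control peaks were control-only and adjacent, 28.2% of them had injury peaks on both sides and 70.1% had another control peak within 10 kb; with 20 kb these were 14.6%, 59.0% and 58.6%. When 50% of a control peak had to be covered for it to count as shared, the share was 18.2%. For 76.4% of these regions the nearest injury peak had no control counterpart by that rule. Where injury peaks covered less than 50% of a region, the first of them was taken as its nearest. The 76.4% is thus tied to this rule and is not comparable with the shares under the other settings. With injury peaks at or above the control median score only, the share was 17.3%, the median width 2296 bp, score 67.2 and gap 2738 bp. Of these regions 45.3% were nearest to an injury-only peak, 34.4% had injury peaks on both sides and 76.1% another control peak. This cutoff carries a control-list score over to the injury list, whose scale is separate, and kept 30342 of its 53341 peaks. With only control peaks at or above the control median score, 677 regions remained by construction (6.59% of the shorter list). They had a width of 2571 bp, a score of 101.0, a gap of 2009 bp, 70.5% nearest to an injury-only peak and 54.4% with another control peak. Both shares count only the kept control peaks, so they are tied to the shorter list. Against the full control list, 52.3% of the 625 highest-scoring adjacent peaks were nearest to an injury-only peak and 74.1% had another control peak. Merging peaks within 1 kb gave a gap of 2672 bp and shares of 61.7% (nearest to an injury-only peak), 41.4% (both sides) and 60.4% (another control peak). With the injury list cut down to the 20555 peaks with the best scores, the length of the control list, 3860 control peaks (18.8%) were control-only and adjacent, with a width of 2382 bp, a score of 69.2, a gap of 3083 bp, 36.3% nearest to an injury-only peak, 27.8% with injury peaks on both sides and 81.5% with another control peak. Regions nearest to an injury-only peak were thus a majority with the full injury list and a minority when weak injury peaks were left out. The sets of regions differed, since control peaks whose overlapping injury peaks were all left out joined the control-only ones. The injury-only share of the shorter injury lists is not given here. No paired analysis was possible because the deposited values are 1 list for the 3 mice of a group, and leaving out a mouse was not possible either.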

Other observations

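The X chromosome was outside the rule. It held 28 control peaks, of which 21 overlapped no injury peak, and 3 of these 21 had an injury peak within 10 kb.

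The reverse relation was also measured on the autosomes. Of 35115 injury-only peaks, 15879 (45.2%, 44.7 to 45.7%) had a control peak within 10 kb, against 65.3% of the control-only peaks with an injury peak within 10 kb. The injury list has 53341 peaks on these chromosomes and the control list 20555, and the part of this unequal length in the difference was not tested.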
